A study of Mus musculus with 24 samples.

Results

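The step from 12 to 16 h of activation was examined in CD4+ T cells of wild-type adult C57BL/6 mice. It covers 6 of the 24 RNA sequencing libraries of the series, namely the Th0, Th1 and Th2 cultures at 12 h and the same 3 cultures at 16 h, compared pairwise within each culture across all genes. The cells were purified from spleen by negative magnetic selection and cultured on plate-bound anti-CD3 with soluble anti-CD28. The study's methods add that red cells were lysed before purification and that the sequenced cells were naive. Its figure legend for this time course names purified CD4+ T cells pooled from several mice, without calling them naive. The labels name no sort for naive cells. Nothing else was added in Th0. Recombinant IL-12 with anti-IL-4 made the Th1 condition, and recombinant IL-4 with antibodies to IL-12 and IFNG the Th2 condition. Each combination of culture and time point was sequenced once, so p-values measure the spread between cultures of 1 pool of cells and not between animals.

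A resting T cell that meets antigen first grows and then enters the cell cycle. Before DNA can be copied, the origin recognition complex, Cdc6 and Cdt1 load the ring-shaped MCM helicase onto origins. Genes of this machinery are classical targets of the E2F transcription factors, which the retinoblastoma protein holds back until G1 cyclin kinases act on it. Genes of mitosis are transcribed later in the cycle.

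The deposited values are RPKM, read counts scaled by transcript length and by the mapped reads of the library. The 6 libraries held between 17512385 (Th2 at 12 h) and 33017133 (Th1 at 12 h) mapped reads, as recovered from the values. The T cell markers Cd3e, Cd3d, Cd3g, Cd4, Lck, Cd28 and Cd5 summed to between 1450 and 1535 RPKM at 12 h and between 1526 and 1545 RPKM at 16 h. The B cell markers summed to at most 23.6 RPKM, the 2 CD8 T cell markers to at most 8.59 RPKM and those of monocytes and macrophages to at most 28.9 RPKM. The red-cell markers Hba-a1, Hba-a2, Hbb-bt, Alas2 and Slc4a1 were high, with sums of 3335 to 5418 RPKM at 12 h and 988 to 1349 RPKM at 16 h. Of the lineage markers, Ifng and Ccr4 are given here, and they were highest in Th1 and Th2 respectively. Ifng, the signature cytokine of Th1 cells, was at 451 RPKM in Th1 at 12 h, against 46.2 RPKM in Th0 and 71.4 RPKM in Th2, and Ccr4, a chemokine receptor of Th2 cells, was at 58.5 RPKM in Th2 against 13.2 and 7.61 RPKM in Th0 and Th1.

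Several genes of DNA replication rose and transcripts of red-cell genes fell between 12 and 16 h. In bulk RNA, fewer cells of a type and less RNA per cell cannot be told apart. Of 10737 genes tested, those whose mean over the 18 cultures reached 1 RPKM, 34 rose and 36 fell at an adjusted p under 0.05 (limma), which is 0.317% and 0.335% of the genes tested. The change was at least 2-fold for 31 of them (0.289%), of which 5 rose (0.0466%) and 26 fell (0.242%). All 34 rises and all 36 falls had the same direction in 3 of 3 cultures. Over all genes tested, 28.0% were higher at 16 h in all 3 cultures and 15.9% were lower in all 3. The median log2 change of all genes tested was 0.04. In 31 of the 34 genes that rose and in all 36 that fell, the 3 libraries of 16 h did not overlap with the 3 of 12 h, against 10.4% of all genes tested for complete separation upwards and 5.96% downwards. The 34 and 36 genes were selected by the test on these same libraries. Their shared direction and lack of overlap follow largely from that selection and are no independent support.

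**Figure D1:**
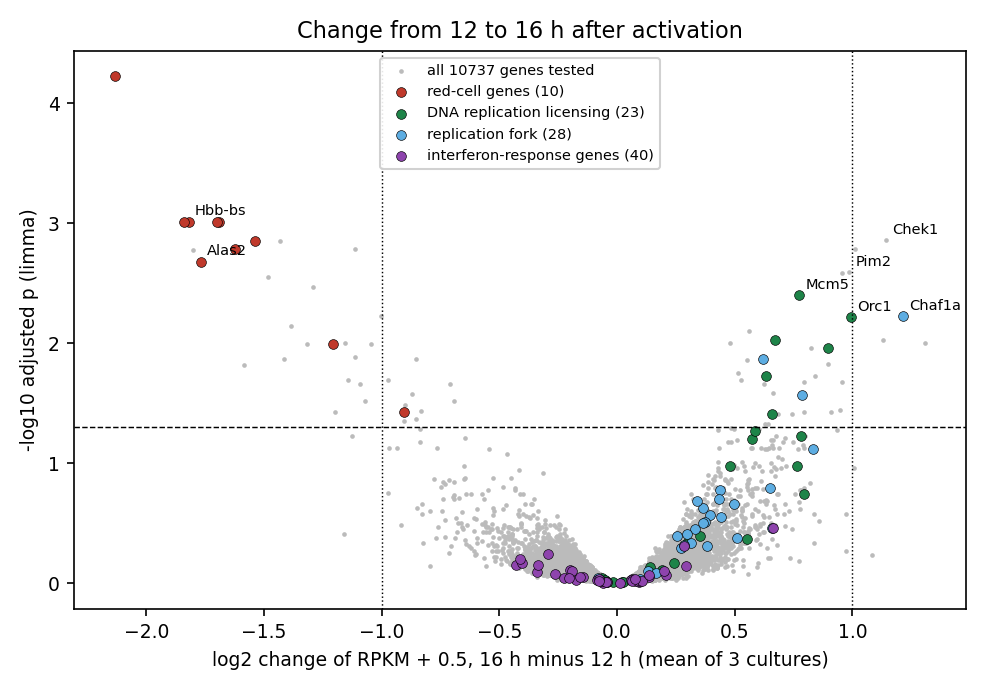
Log2 change from 12 to 16 h (x axis, mean of the 3 cultures) against −log10 of the adjusted p from limma (y axis), 1 point for each of the 10737 genes tested, with 4 gene lists coloured. The dashed line marks an adjusted p of 0.05 and the dotted lines a 2-fold change. Red-cell genes form the left arm, genes of replication licensing and of the replication fork lie on the right arm, and the interferon-response genes lie near the bottom.

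The spread behind these tests comes from how far the 18 cultures of the time course depart from a sum of a culture effect and a time effect. The number of calls depended on the libraries: without the Th0 cultures 2 genes were called at 2-fold or more, without the Th1 cultures none (538 genes at an unadjusted p under 0.05), and without the Th2 cultures 23. When only the 6 libraries compared were used, 412 genes passed the adjusted p, 68 of them among the 70.

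More genes were called in the neighbouring steps. From 8 to 12 h, 155 genes changed at least 2-fold (1.44%), 16 up and 139 down, and from 16 to 20 h, 48 genes did so (0.447%), 33 up and 15 down. These steps share the 12 h or the 16 h libraries with the step examined here. The difference between the step from 12 to 16 h and the step before it passed the threshold for 0 genes in limma (747 at an unadjusted p under 0.05, smallest adjusted p = 0.166), and the difference from the step after it also for 0 genes (264 at an unadjusted p under 0.05, smallest adjusted p = 0.278).

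Some genes of the MCM helicase and of its loading rose. Of the 23 genes of the DNA replication licensing list, 6 rose, none fell and 17 were higher at 16 h in all 3 cultures, with a median log2 change of 0.55. Mcm3, a subunit of the helicase (chromosome 1, 20802968 to 20820312, minus strand, GENCODE on GRCm38), was at 29.4, 33.2 and 43.0 RPKM at 12 h in Th0, Th1 and Th2, and at 58.3, 52.9 and 89.7 RPKM at 16 h. All 3 libraries of 16 h were above all 3 of 12 h, a 1.86-fold rise (log2 change 0.90, standard error 0.16, adjusted p = 0.0109, limma). The values of Mcm3 rested on 2253 to 6786 reads, and the ratio of 16 h to 12 h in Th0, Th1 and Th2 was 1.98 (exact binomial 95% interval 1.89 to 2.08), 1.59 (1.53 to 1.67) and 2.09 (1.99 to 2.19), intervals that cover counting error only. Mcm5 went from 30.9, 34.7 and 53.9 RPKM to 58.0, 55.9 and 90.5 RPKM, a 1.71-fold rise (standard error 0.12 on the log2 scale, adjusted p = 0.00398, limma). Mcm4 rose 1.59-fold and Mcm7 1.58-fold. The other subunits, Mcm2 and Mcm6, were 1.49-fold and 1.5-fold higher and narrowly missed the threshold (adjusted p = 0.063 and 0.0538, limma).

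Orc1, the largest subunit of the origin recognition complex, was at 1.79, 1.87 and 2.15 RPKM at 12 h and at 3.97, 3.35 and 6.1 RPKM at 16 h, a 1.99-fold rise (adjusted p = 0.00602, limma). Th2 had the highest value of Orc1 at 16 h, and no library of 16 h overlapped with one of 12 h. The subunits Orc2, Orc3 and Orc4 had log2 changes of -0.02, -0.06 and -0.05. Gins1, part of the GINS complex that joins the helicase at firing origins, rose 1.55-fold (adjusted p = 0.0188, limma). Cdc45, its partner, was 1.72-fold higher (adjusted p = 0.059, limma), and the loader Cdc6 was 1.73-fold higher with 3.0, 1.31 and 2.51 RPKM at 16 h against 0.946, 1.38 and 0.854 RPKM at 12 h (adjusted p = 0.18, limma). Cdc6 was lower at 16 h in Th1 than at 12 h. Cdt1, which loads the helicase with Cdc6, was 1.23-fold higher (adjusted p = 0.459, limma).

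**Figure D2:**
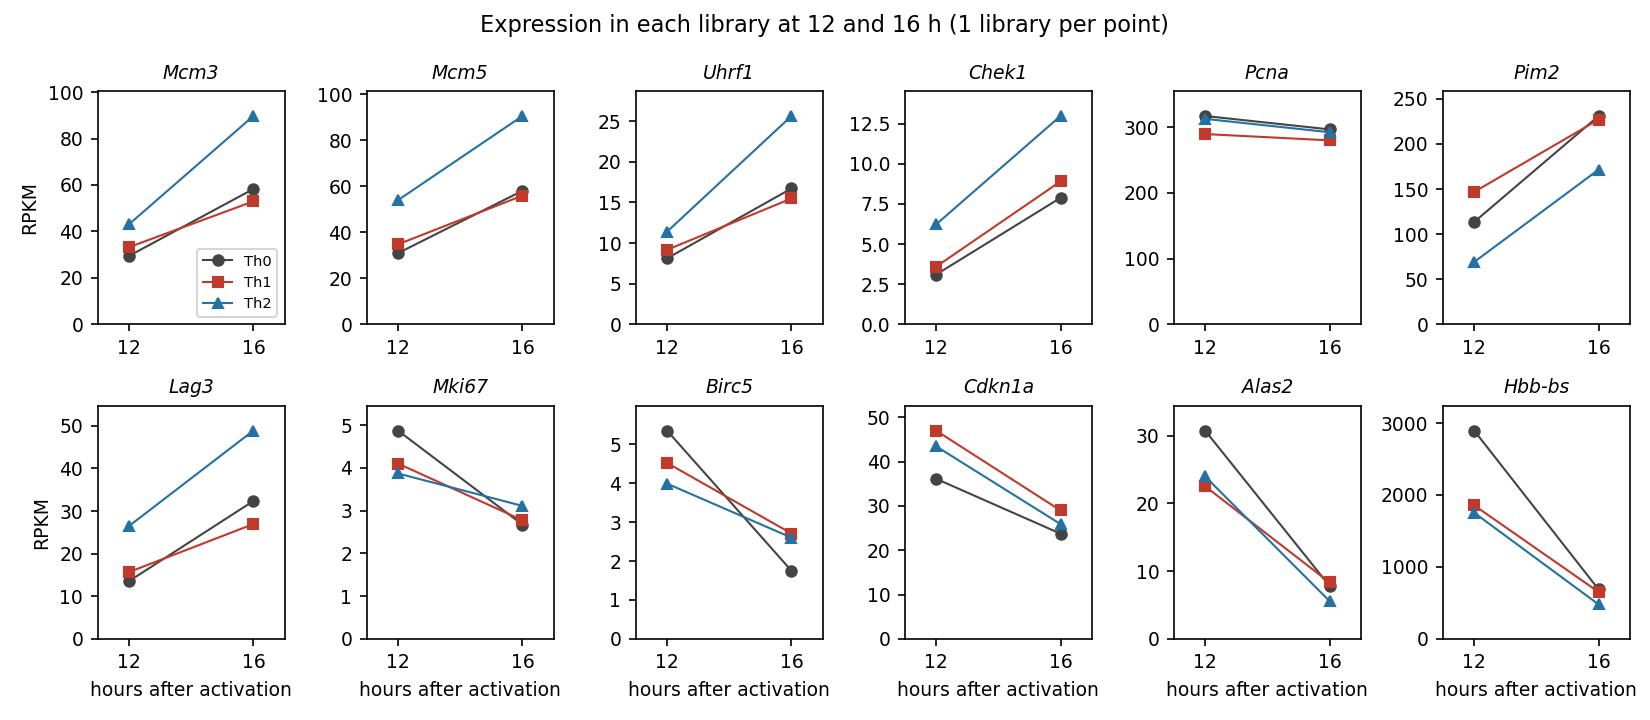
RPKM in each library at 12 and 16 h after activation for 12 genes, 1 point per library, with lines joining the libraries of the same culture and every y axis starting at 0. Mcm3, Mcm5, Uhrf1, Chek1, Pim2 and Lag3 were higher at 16 h in all 3 cultures, Pcna was between 280 and 317 RPKM in all 6 libraries, and Mki67, Birc5, Cdkn1a, Alas2 and Hbb-bs were lower at 16 h in all 3 cultures.

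Among 28 genes of the replication fork, 3 rose, none fell and 25 were higher at 16 h in all 3 cultures, with a median log2 change of 0.37. Chaf1a, the large subunit of the chromatin assembly factor that places histones on new DNA, had the second largest fold of all rises. It went from 1.32, 1.8 and 3.11 RPKM to 4.24, 4.59 and 7.34 RPKM, a 2.32-fold rise (log2 change 1.21, standard error 0.19, adjusted p = 0.00596, limma). From the reads, the ratio was 3.2 in Th0 (95% interval 2.61 to 3.95), 2.54 in Th1 (2.15 to 3.01) and 2.36 in Th2 (2.0 to 2.8). Pole, the catalytic subunit of the leading-strand polymerase, rose 1.72-fold (adjusted p = 0.027, limma), and Wdhd1, which tethers polymerase α to the helicase, rose 1.54-fold (adjusted p = 0.0135, limma). Lig1, the ligase that joins Okazaki fragments, was 1.78-fold higher (adjusted p = 0.0754, limma) and Pold1 1.57-fold higher (adjusted p = 0.161, limma).

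Pcna, the sliding clamp of the same machinery, went the other way in every culture. It was at 317, 290 and 313 RPKM at 12 h and at 297, 280 and 292 RPKM at 16 h (log2 change -0.08, standard error 0.15, adjusted p = 0.908, limma), the 1 gene of the fork list that was lower in all 3 cultures. Its level was already near 310 RPKM in resting cells, and it reached 346 RPKM at 20 h and 503 RPKM at 24 h (means of the 3 cultures).

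A minority of the checkpoint and chromatin genes that accompany replication rose. Of 18 genes of DNA repair and checkpoint, 3 rose and 15 were higher in all 3 cultures (median log2 change 0.42). Chek1, the kinase of the replication checkpoint (chromosome 9, 36708482 to 36727065, minus strand), was at 3.09, 3.59 and 6.22 RPKM at 12 h and at 7.88, 8.9 and 13.0 RPKM at 16 h, a 2.21-fold rise (log2 change 1.14, standard error 0.14, adjusted p = 0.00138, limma), with the smallest p of the 34 rises. Uhrf1, which recognises hemimethylated DNA behind the fork and recruits the maintenance methyltransferase, rose 1.94-fold from 8.11, 9.16 and 11.4 RPKM to 16.7, 15.5 and 25.6 RPKM (adjusted p = 0.00258, limma). That methyltransferase, Dnmt1, rose 1.55-fold (adjusted p = 0.0465, limma), and both are counted in the repair list and in the list of DNA methylation and Polycomb genes. Hells, a chromatin remodeller required for DNA methylation, rose 1.93-fold (adjusted p = 0.0361, limma), and with it 3 of 11 genes of the latter list rose (median log2 change 0.27). Dnmt3a, the de novo methyltransferase, had a log2 change of 0.02.

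Outside the lists, Dtl, an adaptor of the ubiquitin ligase that destroys Cdt1 during replication, rose 2.19-fold (adjusted p = 0.00934, limma), with 1.34, 1.79 and 2.55 RPKM at 12 h and 3.84, 3.49 and 7.26 RPKM at 16 h. Trip13 and Fignl1, ATPases of chromosome biology and of recombination, each rose 1.73-fold. Hist1h2bj, a replication-dependent histone, had the largest fold of all rises (2.48) but rested on few reads, 2 to 8 per library at 12 h and 13 to 42 at 16 h. In Th0 its ratio of 2.01 had a 95% interval from 0.77 to 5.59. These 4 genes were named after their values were seen.

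Of 27 genes of nucleotide synthesis, 1 rose and 12 were higher in all 3 cultures (median log2 change 0.15). Dut, which keeps uracil out of DNA by hydrolysing dUTP, rose 1.47-fold from 20.2, 25.2 and 28.1 RPKM to 32.6, 35.0 and 41.0 RPKM (adjusted p = 0.00795, limma). Neither subunit of ribonucleotide reductase passed the threshold. Rrm1 was 1.35-fold higher with no overlap (adjusted p = 0.053, limma), and Rrm2 had 8.76, 7.82 and 7.37 RPKM at 12 h and 5.83, 7.54 and 9.7 RPKM at 16 h (adjusted p = 0.939, limma). Tyms and Tk1, which make thymidylate, had log2 changes of 0.12 and -0.02.

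Of 13 G1 cyclins, kinases and inhibitors, 1 rose. Cdk6, a kinase of the D-type cyclins, rose 1.67-fold from 3.54, 5.85 and 5.78 RPKM to 7.86, 7.42 and 10.9 RPKM (adjusted p = 0.0389, limma), while its paralogue Cdk4 was at 182 to 236 RPKM at 12 h and at 209 to 263 RPKM at 16 h (log2 change 0.14). Ccnd2, the most abundant D-type cyclin here, had a log2 change of -0.00 (standard error 0.26), and Ccne1 of 0.35 (standard error 0.20). Among 13 genes of the E2F and retinoblastoma families none passed the threshold. E2f1 had the smallest adjusted p, with 2.05, 1.67 and 2.44 RPKM at 12 h and 2.95, 2.91 and 4.99 RPKM at 16 h (1.58-fold, adjusted p = 0.0742, limma).

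Of 26 genes of mitosis and chromosome segregation, none rose and 1 fell, and the median log2 change was 0.06, with -0.10, -0.02 and 0.27 in the order Th0, Th1 and Th2. The gene that fell was Birc5, which encodes survivin of the chromosomal passenger complex, from 5.35, 4.52 and 3.99 RPKM to 1.75, 2.71 and 2.6 RPKM (log2 change -0.85, standard error 0.18, adjusted p = 0.0424, limma). Mki67, the proliferation marker, was at 4.87, 4.1 and 3.87 RPKM at 12 h and at 2.67, 2.78 and 3.11 RPKM at 16 h, without overlap but short of the threshold (adjusted p = 0.342, limma). Ccna2 and Ccnb1, the cyclins of the later cycle, had log2 changes of -0.08 and -0.05. These genes had been far higher in resting cells: Mki67 had a mean of 92.9 RPKM there, 4.28 RPKM at 12 h, 2.85 RPKM at 16 h and 10.6 RPKM at 24 h.

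**Figure D3:**
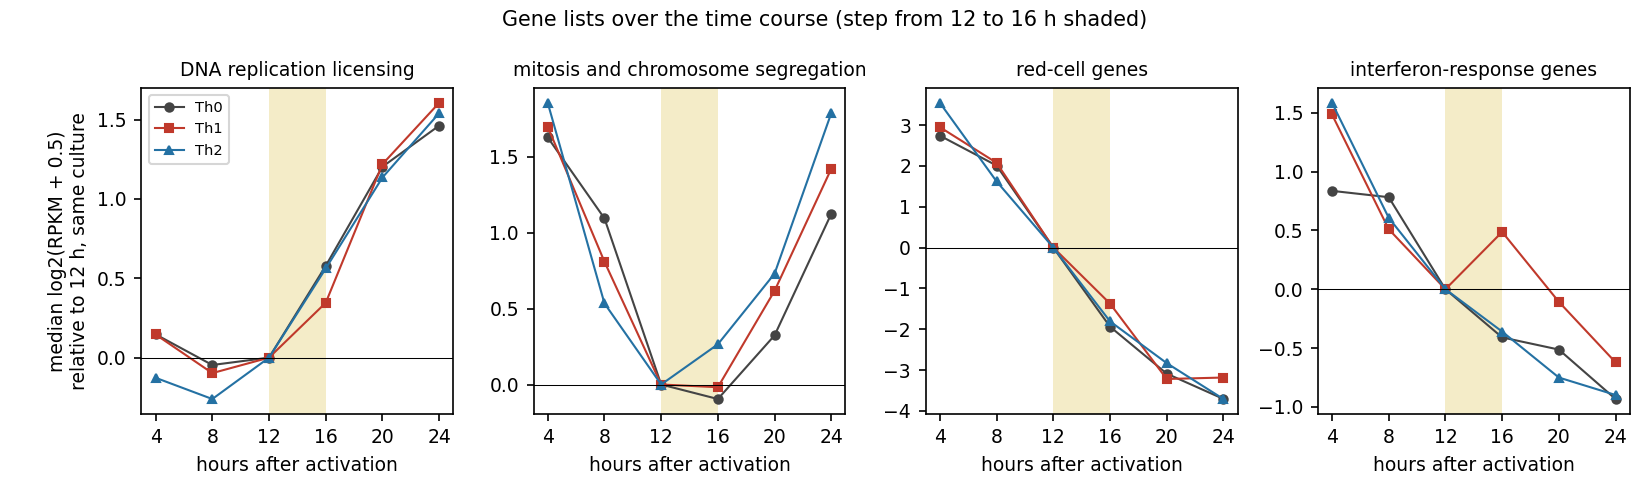
Median log2(RPKM + 0.5) of 4 gene lists at 6 time points (x axis, hours after activation), relative to 12 h of the same culture (y axis), 1 line per culture, with the step from 12 to 16 h shaded. Replication licensing genes had their lowest median at 8 h in each culture and a higher one at 16 h than at 12 h. Mitosis genes were near their minimum at 12 and 16 h, and red-cell genes had lower medians at each time up to 20 h. Between 12 and 16 h the median of interferon-response genes was higher in Th1 and lower in Th0 and Th2.

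Over the time course, the licensing list had its lowest median at 8 h in each culture. In Th2 its median at 12 h was above those at 4 and 8 h. The licensing list was at a median of 0.15, 0.15 and -0.13 on the log2 scale at 4 h relative to 12 h in Th0, Th1 and Th2, and at -0.05, -0.10 and -0.26 at 8 h. It stood at 0.58, 0.35 and 0.56 at 16 h and at 1.46, 1.61 and 1.54 at 24 h. Of the 34 genes that rose, 28 had a higher mean at 12 h than at 8 h, 29 were higher again at 20 h than at 16 h in all 3 cultures, and 27 were higher at 24 h than at 16 h in all 3. Th1 showed the smallest change of the 3 cultures in 25 of the 34, Th0 the largest in 14 and Th2 the largest in 18. For these patterns the shares over all genes tested were not computed. The median log2 change of these 34 genes in Th0, Th1 and Th2 was 0.84, 0.61 and 0.88, values that describe genes selected on the same libraries.

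Bases upstream of a start of transcription are shown for Mcm5 and Uhrf1 because an E2F site is a known feature of replication promoters. Windows of 250 bases before and 50 bases after the start of transcription (RefSeq, GRCm38.p6) were at hand for 28 of the 34 genes that rose. They were searched on both strands for TTTCGCGC, TTTGGCGC and TTTCCCGC, 3 forms of the E2F site that can overlap each other. At least 1 form was found for 8 of the 28 genes (28.6%), namely Uhrf1, Dnmt1, Mcm5, Hells, Orc1, Mcm7, Dtl and Mcm3, against 4.42% of 8181 genes tested with a window and 0 of 26 genes that fell. In the licensing list it was 9 of 18 genes, and for the replication fork 7 of 24 (29.2%). CCAAT, a common promoter element, was found for 13 of the 28 genes that rose and for 12 of the 26 that fell. In the stretch of Mcm5 at chr8:75109318-75109405 on the plus strand the match begins 153 bases before the start and joins a form on each strand, and in that of Uhrf1 at chr17:56304090-56304173 on the plus strand it begins 185 bases before one of the 2 starts listed for this gene. The Uhrf1 stretch lies within the span annotated for the gene, chr17:56303321-56323486, and overlaps no annotated exon. Capitals mark the matches.
Mcm5: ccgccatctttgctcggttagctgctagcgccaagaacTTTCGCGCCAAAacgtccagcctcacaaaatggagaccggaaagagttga
Uhrf1: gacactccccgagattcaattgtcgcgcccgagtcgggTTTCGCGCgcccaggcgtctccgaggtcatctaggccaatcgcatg

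Several genes of T cell signalling and metabolism also rose. Pim2, a survival kinase induced by cytokines through STAT5, was at 113, 147 and 69.0 RPKM at 12 h and at 231, 227 and 172 RPKM at 16 h, the most abundant of the 34 genes (1.98-fold, log2 change 0.99, standard error 0.14, adjusted p = 0.00255, limma). It was the 1 gene of 12 in the SOCS and STAT feedback list to rise, while Cish, another STAT5 target, had a log2 change of 0.28 and Socs1 of 0.12. Lag3, an inhibitory receptor for MHC class II, was at 13.5, 15.7 and 26.5 RPKM and then at 32.3, 26.9 and 48.9 RPKM (1.94-fold, adjusted p = 0.0208, limma). The other 17 costimulatory and inhibitory receptors did not pass the threshold. Cd69, an early activation marker, was lower in all 3 cultures, at 366, 413 and 313 RPKM and then 250, 286 and 221 RPKM (log2 change -0.53, adjusted p = 0.408, limma), and Pdcd1 had a log2 change of -0.43 and Ctla4 of 0.05.

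Of 19 glycolysis genes, 1 rose and 12 were higher in all 3 cultures (median log2 change 0.13). Tpi1, triosephosphate isomerase, rose 1.47-fold from 62.0, 70.3 and 88.7 RPKM to 95.1, 103 and 126 RPKM (adjusted p = 0.0138, limma), while Ldha, which reduces pyruvate to lactate, had a log2 change of 0.02 and Pkm of 0.13. Further rises, named after their values were seen, were Pla2g4f, a cytosolic phospholipase A2 (2.02-fold, adjusted p = 0.00164, limma), Ckb, the brain-type creatine kinase (1.86-fold), the retinoid receptor Rxra (1.77-fold) and Prkca, protein kinase C α (1.54-fold). Rxra was nearly equal in the 3 cultures, at 5.26, 5.97 and 5.43 RPKM and then 10.0, 10.1 and 10.5 RPKM. Lad1, an anchoring filament protein known from epithelia, went from 33.9, 30.3 and 66.6 RPKM to 73.2, 43.5 and 144 RPKM (1.88-fold, adjusted p = 0.0371, limma), and its libraries overlapped, since Th1 at 16 h stayed below Th2 at 12 h.

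Of the 36 genes that fell, 10 belonged to the red-cell list. They were all of its members that were tested, with a median log2 change of -1.69 (Th0 -1.94, Th1 -1.37, Th2 -1.81), and 9 of the 10 lost at least 2-fold in the fit. This list passed the filter on low values with the help of high levels at 4 and 8 h. Hbb-bs, an adult β-globin, was at 2896, 1856 and 1754 RPKM at 12 h in Th0, Th1 and Th2 and at 686, 651 and 478 RPKM at 16 h, so that the highest library of 16 h lay far below the lowest of 12 h (3.53-fold lower, log2 change -1.82, standard error 0.22, adjusted p = 0.000966, limma). Hbb-bt, the other adult β-globin, fell by 1.84 on the log2 scale. The α-globins Hba-a1 and Hba-a2 fell by 1.69 and 1.70. Each pair is nearly identical in sequence, so reads could be divided between its members in different ways and the split is uncertain.

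Alas2, the erythroid enzyme of the first step of haem synthesis, went from 30.8, 22.5 and 24.0 RPKM to 7.8, 8.33 and 5.57 RPKM (3.41-fold lower, adjusted p = 0.00208, limma). Slc4a1, the band 3 anion exchanger, fell by 1.62 on the log2 scale and Car2, carbonic anhydrase, by 1.54. Cd24a, a surface glycoprotein of red-cell precursors and other blood cells, is not in the red-cell list. It fell by 1.00, from 26.2, 20.3 and 20.2 RPKM to 11.4, 11.5 and 9.57 RPKM.

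Falls outside the list, named after their values were seen, held further genes known from red cells and their precursors. Kel and Rhd, blood group antigens, fell by 1.80 and 1.59 on the log2 scale, Aqp1, a water channel, by 1.43, Klf1, the erythroid transcription factor, by 1.38 and Epor, the erythropoietin receptor, by 1.09. Their levels were low, with a mean of 1.15 RPKM at 12 h for Epor and 4.56 RPKM for Kel. Of all 36 falls, 24 had a mean under 5 RPKM at 12 h, and 10 had a mean under 1 RPKM over the 6 libraries. When the filter, in a choice made after seeing the data, required a mean of at least 1 RPKM over these 6 libraries, 57 of the 70 genes still passed. They were 25 of the 36 falls and 32 of the 34 rises.

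Haemoglobin genes took 0.836% to 1.37% of the summed RPKM at 12 h and 0.246% to 0.344% at 16 h, after 6.25% and 6.86% in the resting libraries. The summed RPKM of the red-cell list at 16 h was 0.245, 0.368 and 0.288 times that at 12 h in Th0, Th1 and Th2. The same ratio was 0.292, 0.276 and 0.34 for the step from 8 to 12 h and 0.301, 0.198 and 0.306 for the step from 16 to 20 h. In 30 of the 36 genes that fell, the mean of the 3 cultures fell at every one of the 5 steps from 4 to 24 h. How many of all genes tested did so was not computed. In a fit chosen after seeing the data, with the red-cell list left out and each library rescaled, 53 of the 70 genes passed the adjusted p, none of them new. The 10 members of the list among the 70 could not pass in this fit. Of the 53 genes, 28 rose and 25 fell, against 34 and 36 in the main fit.

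The search for AGATAA, a site of the GATA family to which the erythroid factor GATA1 belongs, found it in the windows of 10 of 26 genes that fell (38.5%) and of 1 of 28 that rose (3.57%), against 8.03% of the genes tested. CCACACCC, also searched, was found for 1 of the 26 that fell (3.85%) and 0 of the 28 that rose, against 4.63%. The stretch of Alas2 at chrX:150547293-150547374 on the plus strand is shown because this gene is the textbook erythroid enzyme. Its match, in capitals, lies on the minus strand and begins 86 bases before the start.
Alas2: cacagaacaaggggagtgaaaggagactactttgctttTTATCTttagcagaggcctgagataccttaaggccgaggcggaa

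A few genes that fell, chosen after their values were seen, are not known as red-cell genes. Ndrg1, a stress-responsive protein, had risen during activation, with means of 11.9 RPKM in resting cells, 31.8 RPKM at 8 h and 32.8 RPKM at 12 h, and it then fell from 32.1, 36.5 and 29.8 RPKM to 20.5, 20.6 and 18.3 RPKM (log2 change -0.71, standard error 0.14, adjusted p = 0.0218, limma). Ramp3, a partner of G protein-coupled receptors, fell from 15.5, 13.5 and 14.0 RPKM to 7.8, 7.41 and 7.07 RPKM (adjusted p = 0.0447, limma). Tubb1, a tubulin known from platelets, also fell (log2 change -1.20, standard error 0.25, adjusted p = 0.0371, limma). The platelet chemokines Pf4 and Ppbp were 1.96-fold and 1.89-fold lower and missed the threshold (adjusted p = 0.177 and 0.327, limma).

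Targets of p53 were mostly lower without passing the test. Of 13 genes tested, none rose, none fell at the threshold and 8 were lower in all 3 cultures, with a median log2 change of -0.22. Cdkn1a, the cyclin kinase inhibitor p21, was at 36.1, 47.0 and 43.5 RPKM at 12 h and at 23.7, 29.0 and 25.9 RPKM at 16 h, without overlap (log2 change -0.67, standard error 0.20, adjusted p = 0.193, limma). Ccng1, cyclin G1, had a log2 change of -0.43 and Trp53inp1 of -0.55 (adjusted p = 0.168 for both, limma), also without overlap. For comparison, 5.96% of all genes tested lay entirely lower at 16 h.

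Of 21 immediate-early factors none passed the threshold and 10 were lower in all 3 cultures (median log2 change -0.24). Nr4a1, an orphan nuclear receptor induced by the T cell receptor, was at 552, 431 and 446 RPKM and then at 434, 313 and 280 RPKM (log2 change -0.49, adjusted p = 0.691, limma), and Egr2 had a log2 change of -0.43. Myc, the growth regulator, had 220, 269 and 310 RPKM at 12 h and 287, 247 and 315 RPKM at 16 h (log2 change 0.10, standard error 0.32). No gene passed among 30 of ribosome biogenesis (median -0.01), 26 of oxidative phosphorylation (0.06), 22 of the mitochondrial ribosome (0.11), 25 of the proteasome (-0.04) and 19 of cholesterol synthesis (0.07), against 0.04 over all genes tested.

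None of 27 early cytokines and chemokines, 14 Th1 regulators or 13 Th2 regulators passed the threshold. Ifng was at 451 RPKM in Th1 at 12 h and at 500 RPKM at 16 h, against 65.0 RPKM in Th0 and 73.0 RPKM in Th2 at 16 h. Gzmb, the granule protease granzyme B, was 1.6-fold higher, at 40.8, 155 and 64.5 RPKM and then 77.3, 234 and 93.8 RPKM (adjusted p = 0.474, limma). Tbx21, the Th1 transcription factor, was at 15.0, 21.9 and 5.37 RPKM and then at 22.6, 29.1 and 4.04 RPKM. Gata3, that of Th2 cells, was at 14.9, 8.4 and 18.8 RPKM and then at 18.1, 8.14 and 21.7 RPKM. Tbx21 was thus higher at 16 h in Th0 and Th1 and lower in Th2, with 1 library behind each value.

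**Figure D4:**
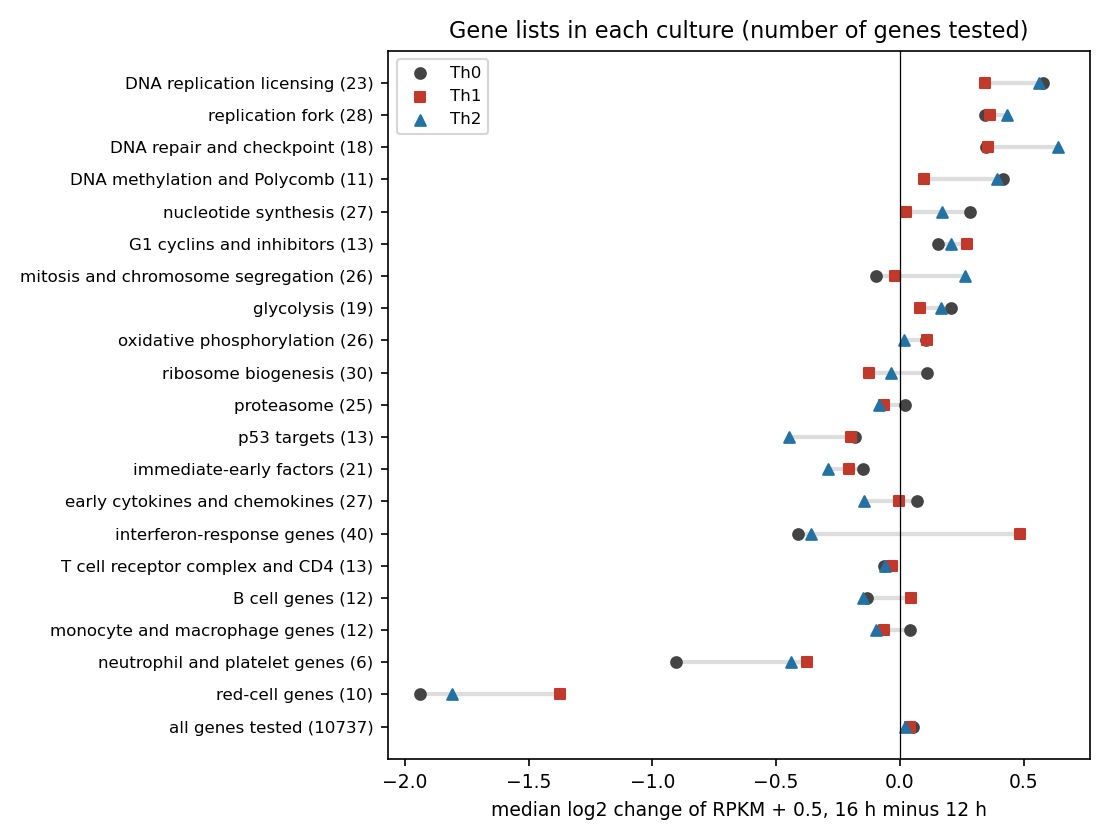
Median log2 change from 12 to 16 h (x axis) of 20 gene lists and of all genes tested, 1 symbol per culture, with the number of genes tested in parentheses. The replication lists lie to the right of 0 and the red-cell list to the left in all 3 cultures, whereas the interferon-response genes lie at 0.49 in Th1 and at -0.41 and -0.36 in Th0 and Th2.

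The median change of the interferon-response genes differed in sign between the cultures. Interferons act through receptors that signal by JAK kinases, and the genes they induce encode antiviral proteins and parts of the response itself. Of 40 genes tested, none passed the threshold in the fit over the cultures. The median log2 change was 0.49 in Th1, with 39 of 40 genes higher, -0.41 in Th0, with 38 of 40 lower, and -0.36 in Th2, with 34 of 40 lower. The medians of all genes tested were 0.04, 0.05 and 0.02. In 33 of the 40 genes the change was upward in Th1 and downward in both other cultures, a pattern that 10.7% of all genes tested had. There is 1 library per culture and time point, so this difference between cultures has no replicate check and no test.

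**Figure D5:**
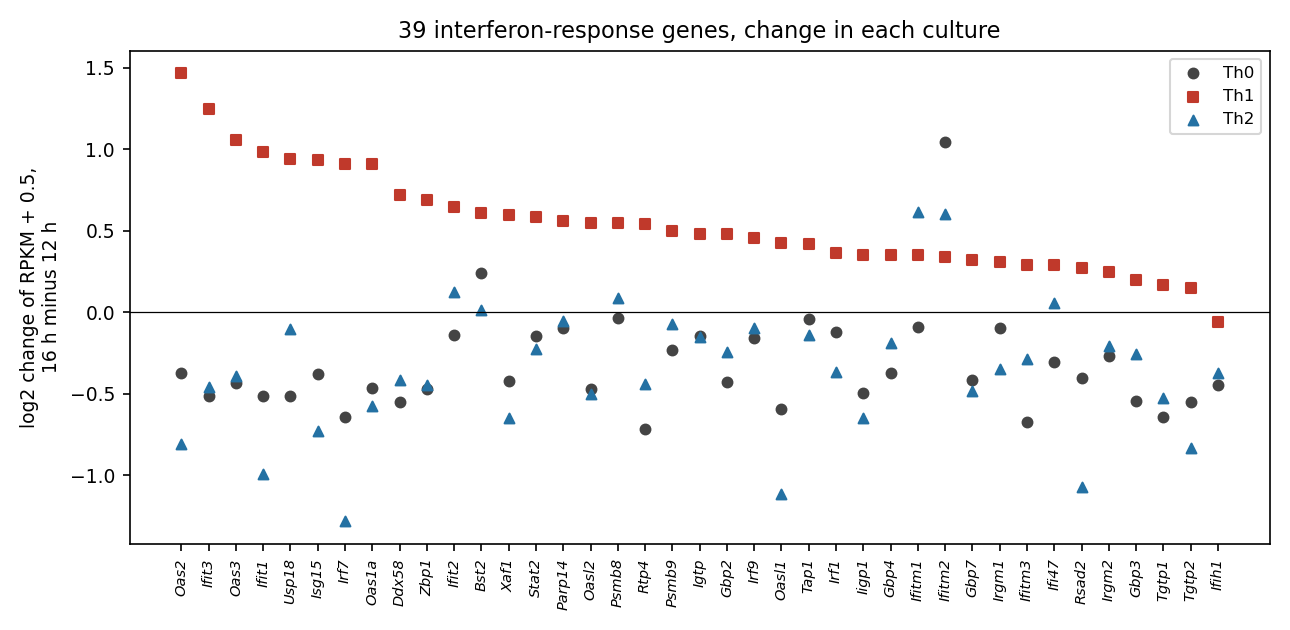
Log2 change from 12 to 16 h (y axis) of 39 of the 40 interferon-response genes tested, ordered by their change in Th1, 1 symbol per culture and 1 library behind each end of a change. All but Ifih1 lie above 0 in Th1, and most lie below 0 in Th0 and Th2.

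The 5 genes with the widest range of change over the cultures, among 8206 genes averaging 5 RPKM or more, were Irf7, Ifit1, Ifit3, Isg15 and Pydc4. Irf7, a transcription factor that amplifies the interferon response (chromosome 7, 141262706 to 141266481, minus strand), was at 37.1 RPKM in Th0, 17.9 in Th1 and 11.8 in Th2 at 12 h, and at 23.6, 34.0 and 4.56 RPKM at 16 h. Th0 was thus the highest culture at 12 h and Th1 at 16 h. The log2 changes of Irf7 were -0.64, 0.91 and -1.28, a range of 2.19, where the median range was 0.25. Ifit1, which binds viral RNA, was at 10.8, 8.79 and 2.21 RPKM and then at 7.43, 17.8 and 0.863 RPKM. By reads its ratio was 0.69 in Th0 (95% interval 0.61 to 0.77), 2.03 in Th1 (1.86 to 2.22) and 0.39 in Th2 (0.28 to 0.54). Ifit3, a gene of the same family, had ratios of 0.69 (0.63 to 0.76), 2.42 (2.24 to 2.61) and 0.69 (0.51 to 0.92).

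Isg15, a ubiquitin-like modifier, had ratios of 0.76 (95% interval 0.63 to 0.91) in Th0, 1.95 (1.69 to 2.25) in Th1 and 0.58 (0.42 to 0.78) in Th2. For these genes the opposite directions exceeded counting error, which is not the spread between cultures. Irf1, a transcription factor induced by interferon, was at 334, 236 and 75.0 RPKM and then at 306, 304 and 58.0 RPKM. The Th2 cultures, which held anti-IFN-γ, were lowest at both times for Irf1 and Irf7. Over the time course the interferon list in Th1 was at a median of 0.51 at 8 h relative to 12 h, 0.49 at 16 h, -0.11 at 20 h and -0.62 at 24 h, so the Th1 libraries at 8 and 16 h stood above the one at 12 h between them. In Th0 the medians were 0.78 at 8 h, -0.41 at 16 h and -0.51 at 20 h, a fall at each step.

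An interferon-stimulated response element is represented by GAAA, any 2 bases and GAAA again. It was found in the windows of 20 of 32 interferon-response genes (62.5%), against 3.98% of genes tested, 1 of 28 genes that rose and 1 of 26 that fell. The stretch of Ifit1 at chr19:34640747-34640851 on the plus strand holds 2 matches, both on the minus strand and in capitals, and the first begins 104 bases before the start.
Ifit1: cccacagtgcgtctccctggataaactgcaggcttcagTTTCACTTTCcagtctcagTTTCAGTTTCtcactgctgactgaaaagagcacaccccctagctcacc

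Actinomycin, which stops transcription, was given after 16 h of stimulation in another 4 libraries, and the first of these gives another view of 16 h, in a culture whose skewing condition the labels do not give. In that library 33 of the 34 genes that rose lay above their mean at 12 h, and 31 of the 36 that fell lay below it. The same counts over all genes tested were not computed, so these have no baseline. The log2 slopes of the 34 and the 36 genes over 4 h of actinomycin had medians of 0.01 and 0.01 per hour, and the median of all genes tested was 0.0016 per hour. RPKM is scaled to the mapped reads of each library, so a slope is relative to the remaining RNA and gives no absolute decay. Cdkn1a had a slope of -0.46 per hour and Pcna of -0.19, each from 4 libraries and without a test.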

How the data were processed

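The authors deposited 1 table of RPKM values, with 22009 named genes in 24 libraries. The labels name GRCm38 and BWA without a version. The annotation and the software used for counting are not given in the sources used here. Mapped reads were recovered from genes whose values were whole multiples of 1 step within 0.02 (5638 genes, 35.9%), and intervals from these reads are exact and cover counting error only. A linear model on log2(RPKM + 0.5), with factors for culture and time point, was fitted to the 18 cultures in limma 3.58.1 (R 4.3.3). It let the variance follow expression level, and p-values were adjusted by Benjamini and Hochberg. Fold changes are on this scale, which understates low genes. The fit was tested on simulated data. Genes were named by fold among those called (mean of at least 5 RPKM), as key or top 3 members of 40 lists, and as the 5 with the widest range over cultures. The members and lists were chosen with earlier results of these data known. Slopes after actinomycin used log2(RPKM + 0.1). Gene windows came from RefSeq. Python 3.11.15 with pandas 2.3.3 and scipy 1.17.1 was used. Alternatives were other pseudocounts, filters and scalings, no trend, no pairing, fewer libraries, and leaving out each culture. The values of 2 genes of the lists are not reported here.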

Additional observations from a re-analysis of the deposited data

Results flagged for a closer look

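Interferon-response genes moved in opposite directions in different cultures between 12 and 16 h by at least 1.5-fold on the log2(RPKM + 0.5) scale. With 1 library per culture and time point the difference between cultures was not tested. The log2 change of Ifit1 was 0.98 in Th1 and -0.99 in Th2. That of Irf7 was 0.91 in Th1 and -1.28 in Th2. Isg15 changed by 0.93 in Th1 and by -0.73 in Th2. Pydc4, an interferon-inducible gene of the PYHIN region, changed by 0.63 in Th1 and by -1.03 in Th2.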

How the results depend on the processing

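Of 2225 values under alternatives, 1954 kept their direction and side of the threshold, or, for counts of genes, stayed within 1.5 times the reported count and, for medians of lists, moved by less than the spread between cultures. Without the Th0, Th1 or Th2 cultures, genes called at 2-fold or more numbered 0 to 23, with 0 to 4 rises and 0 to 19 falls, and genes past the adjusted p 0 to 10 for rises and 0 to 20 for falls. With a pseudocount of 1, 17 genes were called, 2 up and 15 down, and with 0.1, 9 genes rose. Requiring 5 RPKM on average gave 3 rises. Without pairing by culture 3 genes rose by 2-fold or more and 5 at any size. Rises at any size numbered 21 without a filter, and 22 each with upper-quartile scaling and quantile normalization. With only the 6 libraries compared, 259 rose and 153 fell at any size. Without the red-cell genes, a choice made after seeing the data, 17 fell by 2-fold or more, and members of that list could not be called there. The causes were not tested, and the pairing of libraries by culture is part of the design used.

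Some log2 changes that passed no threshold reversed sign when a culture was left out. Their values then ran from -0.32 to 0.046 for Ccna2, -0.14 to 0.058 for Ccnb1, -0.095 to 0.075 for Ccnd2, -0.11 to 0.18 for Ctla4, -0.11 to 0.10 for Dnmt3a, -0.015 to 0.048 for Ldha, -0.049 to 0.21 for Myc, -0.12 to 0.026 for Orc4, -0.30 to 0.16 for Rrm2, -0.088 to 0.28 for Socs1 and -0.12 to 0.042 for Tk1. For interferon-response genes they ran from -0.75 to 0.23 (Ifit1), -0.49 to 0.39 (Ifit3), -0.25 to 0.12 (Irf1), -0.96 to 0.13 (Irf7), -0.55 to 0.28 (Isg15) and -0.78 to 0.048 (Pydc4). Medians ran from -0.0061 to 0.18 for the SOCS and STAT list, -0.040 to 0.030 for Th2 regulators, -0.043 to 0.11 for early cytokines and -0.090 to 0.0048 for monocyte genes. Median-of-ratios scaling gave -0.027 for Dnmt3a and -0.029 for Ldha, and upper-quartile scaling -0.034 for Dnmt3a, -0.037 for Ldha and -0.0068 for Ctla4. The Bcl2 family had a median of 0.017 when 5 RPKM was required on average, and the monocyte genes one of -0.086 with a pseudocount of 0.1.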
